A study of Oryza sativa with 36 samples.

Results

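Untreated rice shoots were compared between the later and the earlier sampling time, 24 h against 6 h, to see which transcripts change with time alone, which of these changes the varieties share and which differ between them. By their labels, 12 of the 36 arrays of the series belong to this comparison, namely 3 arrays each of the groups R24C, R6C, T24C and T6C, where R stands for Rathu Heenati (RH), T for Taichung Native 1 (TN1), the number for the hour and C for natural growth. RH is an indica landrace from Sri Lanka that resists the brown planthopper (BPH), and TN1 is an indica variety that is susceptible to it. The seedlings were 2 weeks old, had been given neither insects nor needle wounds, grew under natural conditions, and each replicate was a pot of 10 plants whose shoots were collected together. Hours were counted from the infestation of parallel pots, so the plants of 24 h were older by the difference and were also taken at another time of day, which the sources used here do not state; time of day and plant age cannot be told apart. The other 24 arrays come from plants of the same varieties and hours. Those plants had been pricked 15 times with a needle (N) or had received about 100 BPH nymphs a pot (P). Their arrays entered the variance of each probe set, and so the standard errors and adjusted p of the untreated comparisons. Their group means are used only to read the same probe sets in other plants. Every group is 1 variety, so a difference between RH and TN1 belongs to these varieties and not to resistance as such.

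Plants keep time with a circadian clock, a network of transcription factors that repress each other in turn. LHY and its relatives peak around dawn and repress evening genes, the pseudo-response regulators follow each other through the day, and GIGANTEA, PRR1 (the rice counterpart of Arabidopsis TOC1) and the evening complex, to which Arabidopsis LUX (PCL1) belongs, act towards evening. The clock and light together time photosynthesis, nitrogen and sugar metabolism, water transport and hormone responses, and in rice they also feed into flowering through *Hd1* and its partners.

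The level of a probe set is given as its normalized intensity on a linear scale, and a change as the log2 fold change of 24 h over 6 h with its standard error from limma's model, in which all groups share 1 variance for each probe set. A probe set was called where its adjusted p (Benjamini-Hochberg over 57194 probe sets) lay below 0.05 and the change was 2-fold or more. "Rose" and "fell" below stand for called changes at 24 h. Array medians were 38, 38.2 and 38.4 in R24C against 37.6, 36 and 36.2 in R6C, and 38.8, 37.7 and 38.1 in T24C against 36.2, 37.7 and 36.6 in T6C, a shift of 0.06 in RH and 0.05 in TN1 on the log2 scale. No detection calls were used, so an intensity below these medians may be background, and a fold change that involves one may understate the change. Arrays of 1 group correlated at 0.9943 or more, and arrays of 24 h with those of 6 h of the same variety at 0.983 to 0.987. Shoot genes marked the tissue as labelled, with *RBCS-C*, *CAB2R* and *RCABP89* between 13685 and 19905 on every array and not called, while *RBCS1* was dim throughout (8.99 to 12.1) and *RCA* rose, as described below. Of 10 seed storage genes none was called, though *GLB* lay between 790 and 1266, and the root markers chosen had no probe set. In bulk tissue, fewer cells of a type and less RNA per cell cannot be told apart.

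In RH, 1534 probe sets were called in R24C/R6C, of which 626 rose (1.09% of all probe sets) and 908 fell (1.59%). In TN1, 1539 were called in T24C/T6C, of which 695 rose (1.22%) and 844 fell (1.48%). The changes included large ones, since 19 probe sets rose and 25 fell by at least 16-fold in RH, as did 23 and 31 in TN1. Without a minimum fold change, 12717 probe sets (22.2%) passed the adjusted p in RH and 10974 (19.2%) in TN1. Among the 17905 genes with a probe set of their own, taking for each the brightest one, 412 rose (2.3%) and 551 fell (3.08%) in RH, against 455 (2.54%) and 532 (2.97%) in TN1.

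Most of this was common to the varieties. The calls shared in direction numbered 1075, with 495 risen (0.865% of all probe sets) and 580 fallen (1.01%), which is 70.1% of the calls in RH and 69.9% of those in TN1, and no probe set was called in opposite directions. In all 1075 the 3 arrays of 24 h lay apart from the 3 of 6 h in both varieties, as they did in the same direction for 12686 probe sets of the whole array (22.2%). The median log2 fold change of the shared risers was 1.57 in RH and 1.65 in TN1, and that of the shared fallers was -1.41 in RH and -1.42 in TN1. Of the 289 probe sets that changed at least 4-fold in RH, 272 (94.1%) were also called in the same direction in TN1, and of the 322 that did so in TN1, 307 (95.3%) were called in RH. Over all probe sets the log2 fold changes of the varieties correlated at r = 0.83, a description across probe sets of arrays that were normalized together.

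Few of the calls made in 1 variety alone came with a called difference between the varieties. Of the 459 probe sets called in RH alone, 433 moved the same way in TN1, 335 of them with an adjusted p under 0.05, and the interaction, the test of the difference itself, was called for 41. Of the 464 called in TN1 alone, 423 moved the same way in RH, 313 with an adjusted p under 0.05, and the interaction was called for 69. The median of those risen in RH alone was 1.14 in RH and 0.81 in TN1, and of those risen in TN1 alone 0.68 in RH and 1.18 in TN1. The interaction has a larger standard error than either time effect, so a missing call does not show that the varieties are alike. The share of all probe sets that moved the same way was not computed.

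**Figure D1:**
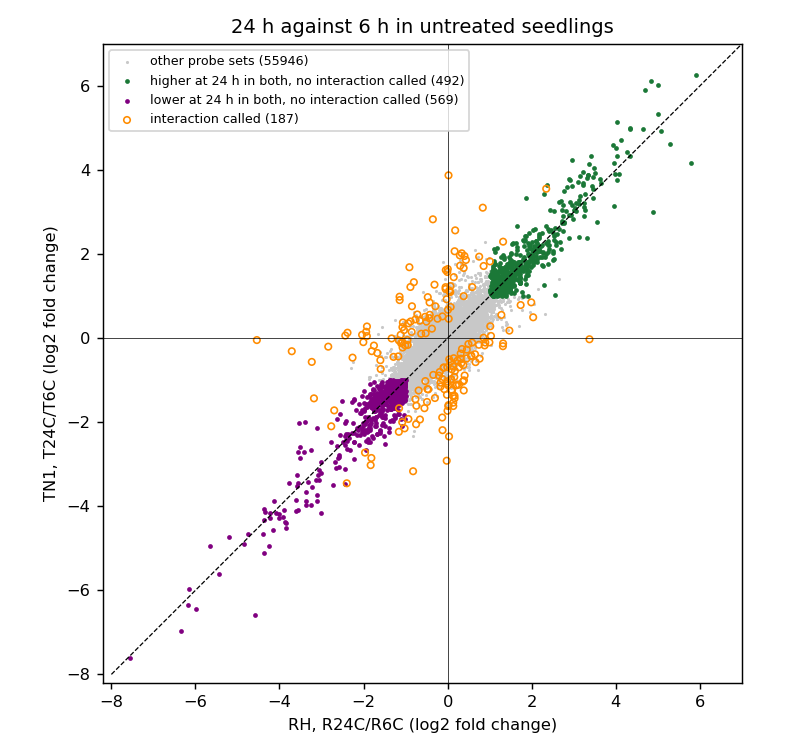
Log2 fold change of 24 h over 6 h in TN1 (vertical) against that in RH (horizontal), 1 point a probe set, with the diagonal dashed. Shared risers (green) and fallers (purple) follow the diagonal over more than 10 log2 units, while the 187 probe sets with a called interaction (open orange) lie off it, many of them along an axis.

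The clock genes held the largest changes of named genes in both directions. Of 7 clock genes measured, 1 rose and 4 fell, the same ones in each variety, against a background of about 2% to 3% of genes in each direction. *OsLHY*, the dawn repressor, had 5146, 5335 and 4781 in R24C against 79.3, 103 and 75.7 in R6C, and 5214, 5911 and 5663 in T24C against 77.5, 63.2 and 80.5 in T6C. The groups were far apart in each variety, a log2 fold change of 5.90 ± 0.19 in RH (adjusted p = 1.1e-20) and 6.25 ± 0.19 in TN1 (adjusted p = 2e-21), or 59.7-fold and 76.2-fold. Another probe set of *OsLHY*, with a mean of 11.7, lay under the array medians. It gave 0.06 in RH and -0.18 in TN1 and was not called.

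*OsPCL1*, the rice member of the evening complex family, ran the other way. Its intensity was 27.7, 31.5 and 28.7 in R24C against 2220, 2323 and 2627 in R6C, and 23.9, 20.1 and 19.7 in T24C against 2603, 2861 and 2449 in T6C. It fell, with log2 fold changes of -6.35 in RH and -6.96 in TN1 (adjusted p = 2.5e-25 and 1.6e-26), and because every 24 h array lay under the array medians these falls may be understated.

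*OsPRR1*, the TOC1 counterpart, stood at 86.2, 91.8 and 68.1 in R24C against 795, 912 and 907 in R6C, and at 151, 159 and 131 in T24C against 972, 924 and 956 in T6C. The groups did not overlap, and it fell in RH (-3.42 ± 0.17, adjusted p = 4.5e-16) and in TN1 (-2.70 ± 0.17, adjusted p = 1.3e-13), with no interaction called (adjusted p = 0.35). *GI*, the rice GIGANTEA, was strongly expressed at the earlier hour, with 1131, 1140 and 1089 in R24C against 5785, 5967 and 6326 in R6C, and with 1251, 1209 and 1298 in T24C against 6556, 7045 and 6419 in T6C. Its fall was alike in RH (-2.43 ± 0.09) and TN1 (-2.41 ± 0.09), with adjusted p = 1.3e-19 and 1.1e-19. *OsPRR95* gave 1056, 1051 and 954 in R24C against 3951, 3837 and 4375 in R6C, and 1085, 1095 and 1204 in T24C against 4593, 4676 and 4341 in T6C. It fell too (-1.99 in RH and -2.01 in TN1, adjusted p = 1.6e-17 and 1e-17).

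The pseudo-response regulators *OsPRR73* and *OsPRR37* were not called in either variety. The intensity of *OsPRR73* was 2785, 2959 and 3057 in R24C against 2363, 2095 and 2522 in R6C, and 2513, 2939 and 2804 in T24C against 2416, 2213 and 2395 in T6C, a log2 fold change of 0.34 ± 0.09 in RH and 0.23 ± 0.09 in TN1. *OsPRR37* gave 0.30 ± 0.10 in RH and 0.00 ± 0.10 in TN1, between 1560 and 2144 on all 12 arrays. So the 7 genes did not move as a block.

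**Figure D2:**
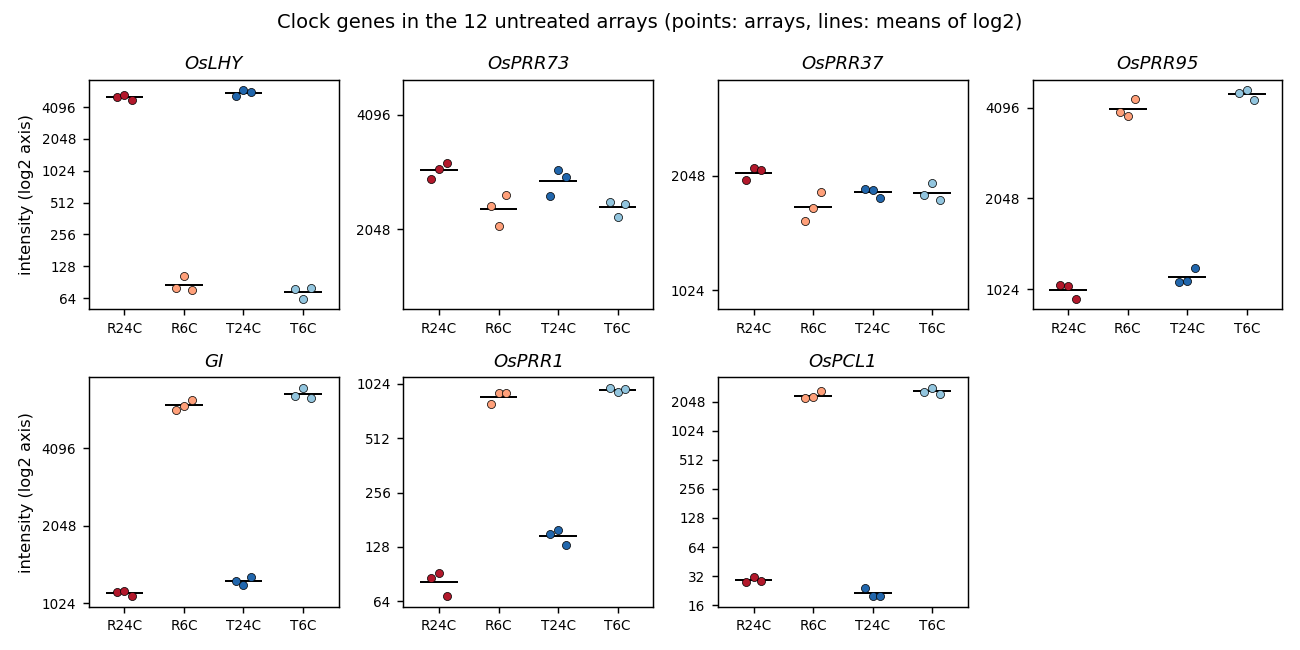
Intensity (log2 axis) of the 7 clock genes on each untreated array, with R24C left of R6C and T24C left of T6C; points are arrays and lines the means of the log2 values. *OsLHY* stands high in R24C and T24C, *OsPRR95*, *GI*, *OsPRR1* and *OsPCL1* stand low in them, and *OsPRR73* and *OsPRR37* stay within a narrow range.

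The flowering genes downstream of the clock were mostly faint or steady. Of 11 photoperiod genes, *Hd1*, the rice counterpart of CONSTANS, was called in RH and *DTH8*, its partner subunit, in TN1, and both fell and were dim. *Hd1* stood at 17.5, 17 and 14.6 in R24C against 31.4, 47.3 and 42.4 in R6C, and at 15.6, 15.6 and 13.9 in T24C against 20.9, 21.4 and 19.1 in T6C, with its arrays of 24 h lowest in each variety. *DTH8* gave 22.9, 31.5 and 27.2 in R24C against 38.1, 46.1 and 50.6 in R6C, and 18.9, 18.7 and 20.6 in T24C against 48.9, 43 and 51.4 in T6C. Its log2 fold change was -0.73 in RH (adjusted p = 0.0023, under the 2-fold minimum) and -1.30 in TN1, and the interaction of 0.57 was not called (adjusted p = 0.58). The florigen gene *Hd3a* lay between 10.9 and 14.9 on all arrays, under the array medians. None of the 5 photoreceptor and light signalling genes measured was called.

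Some nitrogen genes were among the leading named genes in either direction. *OsAMT1;1*, an ammonium transporter, had 1646, 1877 and 1872 in R24C against 113, 111 and 129 in R6C, and 2328, 2389 and 2399 in T24C against 104, 91.8 and 99 in T6C. The arrays of 24 h were all the higher, and it rose by 3.93 ± 0.16 in RH (adjusted p = 2.5e-18) and 4.60 ± 0.16 in TN1 (adjusted p = 3.6e-20). *NIA1*, a nitrate reductase, rose likewise, by 2.64 and 3.24. Dimmer probe sets of *OsAMT1;1* and *NIA1*, with means of 25.8 and 23.1, lay under the array medians. They gave 0.48 and 0.46 in RH and 0.43 and 0.27 in TN1, and neither was called. *GLT2*, an NADH-dependent glutamate synthase, had 14.3, 18.6 and 11.3 in R24C against 759, 678 and 735 in R6C, and 21.4, 15 and 19.7 in T24C against 603, 570 and 552 in T6C. It fell to below the array medians in both varieties, with log2 fold changes of -5.65 ± 0.28 and -4.96 ± 0.28. *AMT2-1*, an ammonium transporter of another family, fell (-1.07 in RH and -1.36 in TN1), and in RH it was no longer called without R24C replicate 1. Of 21 nitrogen genes, 2 rose and 2 fell in RH, and 3 rose and 2 fell in TN1, which leaves 17 and 16 not called. The list had a median of 0.13 in RH and 0.16 in TN1, against -0.09 and -0.07 over all genes. By count, 2.3% of all genes rose and 3.08% fell in RH, and 2.54% and 2.97% in TN1, which is the background for this list and those below.

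Sugar transport was led by SWEET genes, which carry sugars across membranes. *OsSWEET2b* is measured by a pair of probe sets, and the brighter gave 1175, 1172 and 1100 in R24C against 51.9, 55.5 and 64.5 in R6C, and 2039, 2044 and 2137 in T24C against 69.9, 57.7 and 66.5 in T6C. It rose by 4.33 ± 0.16 in RH (adjusted p = 3.1e-19) and 5.01 ± 0.16 in TN1 (adjusted p = 6.1e-21), and the other probe set by 4.64 and 4.98. *OsSWEET15* had 314, 382 and 392 in R24C against 32.7, 29.8 and 36.9 in R6C, and 506, 544 and 585 in T24C against 35.4, 51.8 and 55.3 in T6C. Its 6 h arrays lay near the array medians, and it rose by 3.45 ± 0.31 and 3.54 ± 0.31. These were the risers among 18 sugar transport genes, of which none fell.

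Of 34 sucrose and starch genes, 2 rose and 1 fell in RH, and 1 rose and 1 fell in TN1. The faller was *OsSUS4*, a sucrose synthase, with 405, 344 and 380 in R24C against 1212, 1246 and 1412 in R6C, and 181, 236 and 238 in T24C against 1163, 1149 and 1069 in T6C. All arrays of 24 h lay under those of 6 h, a log2 fold change of -1.78 ± 0.24 in RH and -2.38 ± 0.24 in TN1 (adjusted p = 8.5e-07 and 2.7e-09). *SSII-1*, a starch synthase, rose by just over the minimum in RH (1.01) and TN1 (1.09). Its RH call was lost without any of R6C replicate 3, R24C replicate 2 or R24C replicate 3 and after median centring.

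Of 8 light harvesting and Rubisco genes, 2 rose in each variety. *PSAG*, a subunit of photosystem I, had 2433, 2567 and 2243 in R24C against 398, 447 and 521 in R6C, and 2385, 2581 and 2467 in T24C against 582, 608 and 525 in T6C. It rose by 2.41 ± 0.12 in RH and 2.12 ± 0.12 in TN1 (adjusted p = 2.4e-16 and 5.1e-15), with the groups well apart. A dimmer probe set of *PSAG*, with a mean of 69.7 on the untreated arrays, gave 0.53 in RH and 0.41 in TN1 and was not called. *RCA*, Rubisco activase, gave 13989, 14088 and 14028 in R24C against 6605, 5796 and 6344 in R6C, and 11588, 14315 and 13982 in T24C against 5429, 5307 and 5874 in T6C. It rose by 1.17 ± 0.10 and 1.26 ± 0.10. The other 6 were not called.

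Chlorophyll synthesis had 3 risers among 8 genes in RH and 2 in TN1. *CAO*, chlorophyllide a oxygenase, had 3103, 3445 and 3197 in R24C against 881, 861 and 982 in R6C, and 2896, 3158 and 3286 in T24C against 1239, 1187 and 1095 in T6C. *CHLH*, a magnesium chelatase subunit, rose by 1.17 ± 0.10 in RH and 1.15 ± 0.10 in TN1 on its brighter probe set, and *CAO* by 1.84 ± 0.10 and 1.41 ± 0.10. A dimmer probe set of *CHLH*, with a mean of 157 on the untreated arrays, gave -0.43 in RH and -0.17 in TN1 and was not called. *PORA*, protochlorophyllide oxidoreductase, rose in RH (1.12) and stayed under the minimum in TN1 (0.70), with an interaction of 0.41 that was not called (adjusted p = 0.86).

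The plastid isoprenoid and carotenoid list had the highest medians among lists of 10 or more genes, 0.82 in RH and 0.71 in TN1, with 6 of 14 genes risen in RH and 3 in TN1 and none fallen. *DXPS*, a deoxyxylulose phosphate synthase at the entry of the plastid pathway, had 347, 342 and 325 in R24C against 59.8, 79.9 and 67.1 in R6C, and 501, 579 and 697 in T24C against 45.5, 54.7 and 65.2 in T6C. Every array of T24C lay above those of R24C, and the gene rose by 2.30 ± 0.19 in RH and 3.43 ± 0.19 in TN1, an interaction of -1.12 that missed the threshold (adjusted p = 0.07). *OsPSY2*, phytoene synthase, the first committed enzyme of carotenoids, had 4118, 4061 and 3980 in R24C against 1358, 1413 and 1491 in R6C, and 5168, 5256 and 5356 in T24C against 1263, 1379 and 1271 in T6C. It rose by 1.51 ± 0.12 and 2.01 ± 0.12. *LIS*, a linalool synthase, rose by 2.52 in RH and 2.03 in TN1, and *CLA1*, another deoxyxylulose phosphate synthase, by 1.12 in RH, with 0.89 in TN1. A dimmer probe set of *CLA1*, with a mean of 40.6, gave 0.45 in RH and 0.46 in TN1 and was not called.

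A gene of vitamin B6 synthesis, *PDX12*, rose by more in TN1 as well. It had 762, 980 and 923 in R24C against 148, 170 and 202 in R6C, and 1352, 1362 and 1630 in T24C against 131, 111 and 107 in T6C. The log2 fold change was 2.36 ± 0.22 in RH and 3.64 ± 0.22 in TN1, and the interaction of -1.28 was not called (adjusted p = 0.078).

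**Figure D3:**
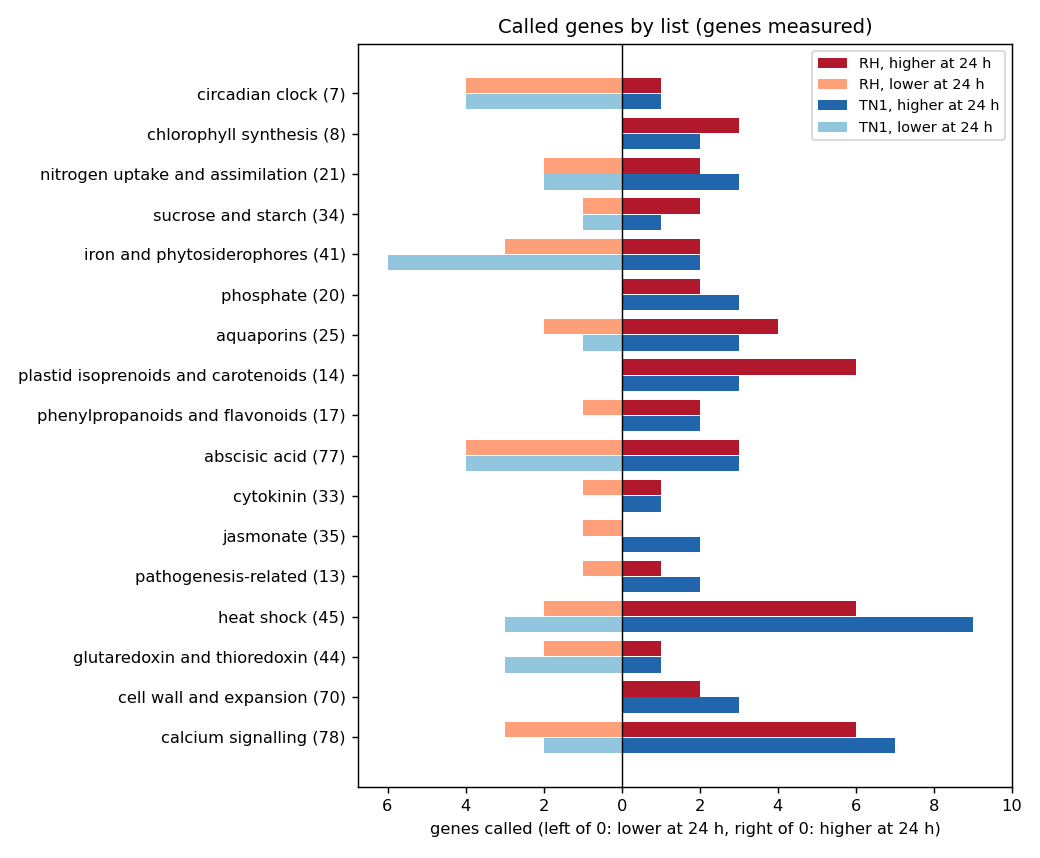
Number of genes that rose (bars to the right of 0) and fell (bars to the left) at 24 h in RH (red) and TN1 (blue), for each list with 3 or more genes called in at least 1 variety; the genes measured are in parentheses. Bars are short against the size of most lists, 9 risen of 45 heat shock genes in TN1 being the longest.

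Water channels moved in both directions. Of 25 aquaporins, 4 rose and 2 fell in RH, and 3 rose and 1 fell in TN1. *OsPIP1;3*, a plasma membrane aquaporin, had 291, 332 and 510 in R24C against 50, 58.7 and 64.4 in R6C, and 466, 549 and 442 in T24C against 92.5, 110 and 94 in T6C. It rose by 2.68 ± 0.28 in RH and 2.30 ± 0.28 in TN1 (adjusted p = 1.2e-08 and 2.2e-07), and the tonoplast *OsTIP1;2* by 1.93 and 1.59. *OsTIP4;1*, the brightest of the aquaporins named here, fell and had 3553, 3126 and 3220 in R24C against 7242, 6732 and 7398 in R6C, and 3239, 2967 and 3138 in T24C against 7168, 7292 and 8214 in T6C. Its log2 fold change was -1.11 ± 0.10 in RH and -1.28 ± 0.10 in TN1. Another probe set of *OsTIP4;1*, with a mean of 10.4 and under the array medians, gave -0.51 and -0.56 and was not called.

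Genes of iron and other metals were called in both directions. *OsFRO1*, a ferric chelate reductase, had 793, 1011 and 947 in R24C against 85.7, 93.7 and 104 in R6C, and 973, 1095 and 1148 in T24C against 147, 134 and 111 in T6C. It rose by 3.28 ± 0.10 in RH and 3.04 ± 0.10 in TN1 (adjusted p = 5.8e-21 and 1.7e-20). *NAAT1*, an enzyme of phytosiderophore synthesis, rose by 1.72 and 1.43. *OsNramp1*, a metal transporter, had 53.9, 38 and 64.4 in R24C against 101, 146 and 142 in R6C, and 78.7, 75.6 and 86 in T24C against 345, 310 and 271 in T6C. It fell (-1.33 in RH and -1.94 in TN1), as did the zinc transporter *OsZIP3* (-1.52 and -1.40). Of the 41 genes of the iron and phytosiderophore list, which does not hold *OsFRO1*, 2 rose and 3 fell in RH, and 2 rose and 6 fell in TN1. Of 20 phosphate genes, 2 rose in RH and 3 in TN1, none fell, and the phosphate transporter *OsPht1;4* gave 1.26 and 1.34.

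Calcium signalling held *CIPK5* and *CIPK10*, protein kinases that bind calcineurin B-like calcium sensors, with opposite signs. *CIPK5* had 468, 493 and 447 in R24C against 51.1, 66.9 and 60.2 in R6C, and 454, 517 and 442 in T24C against 66.7, 74 and 57.7 in T6C. Its rise was 2.99 ± 0.22 in RH and 2.84 ± 0.22 in TN1. The brightest of 4 probe sets of *CIPK10* had 240, 256 and 361 in R24C against 3827, 3687 and 3991 in R6C, and 310, 330 and 348 in T24C against 3731, 3743 and 3341 in T6C. All 4 fell, with log2 fold changes from -3.77 to -3.08 in RH and from -3.51 to -3.25 in TN1. *CIPK1* rose by 1.96 and 1.85, and *CML1*, a calmodulin-like protein, fell (-2.08 and -2.29). The list of 78 genes had 6 risen and 3 fallen in RH, and 7 risen and 2 fallen in TN1.

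Abscisic acid signalling held 1 of the deep fallers. *OsSAPK9*, a kinase activated by abscisic acid and osmotic stress, had 47.5, 36.4 and 30.1 in R24C against 614, 605 and 688 in R6C, and 34.3, 41.4 and 31.2 in T24C against 649, 662 and 594 in T6C. It fell to about the array medians (-4.09 in RH and -4.16 in TN1, adjusted p = 3.2e-16 and 1.8e-16). Among the protein phosphatases 2C, *OsPP2C39* rose by 1.72 and 1.35 and *OsPP2C27* fell (-1.53 and -1.38). Of 77 genes of this list, 3 rose and 4 fell in each variety, near the background of genes (2.3% risen and 3.08% fallen in RH, 2.54% and 2.97% in TN1). Of the other hormone lists, the auxin list had 1 called gene of 61 (*SAUR39*, fallen in both and dim), and the gibberellin and brassinosteroid lists, with 10 and 18 genes, had none. The ethylene list of 17 genes held *EIL1b*, of the EIN3 family of ethylene response regulators, which fell (-1.79 in RH and -2.32 in TN1), and *ARD' 4*, which rose in TN1 (1.75) and was at 0.41 in RH. In RH the intensity of *ARD' 4* was 16.7 to 52.3, near or under the array medians, so its RH value may reflect background. Its interaction was not called (adjusted p = 0.34). Of 33 cytokinin genes, 1 rose and 1 fell in RH and 1 rose in TN1, and of 35 jasmonate genes, 1 fell in RH and 2 rose in TN1.

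Heat shock genes gave the largest number of calls of any list in TN1, though not the largest share. There were 6 risen and 2 fallen of 45 in RH, where 2.3% of all genes rose and 3.08% fell. In TN1 there were 9 risen and 3 fallen, against 2.54% and 2.97% of all genes. Of the 7 clock genes, 1 rose and 4 fell. *HSP24.1*, a small heat shock protein, had 1831, 1846 and 1926 in R24C against 438, 380 and 268 in R6C, and 1958, 2290 and 2519 in T24C against 415, 330 and 369 in T6C. Its rise was 2.40 ± 0.30 in RH and 2.60 ± 0.30 in TN1. The heat shock factors moved both ways. *HSFC2A* had 328, 387 and 307 in R24C against 50.6, 52.8 and 74.7 in R6C, and 402, 435 and 453 in T24C against 49, 57.7 and 50.8 in T6C. *HSFC1B* had 31.3, 24.5 and 16.6 in R24C against 174, 179 and 215 in R6C, and 36.9, 17.3 and 23.1 in T24C against 173, 204 and 186 in T6C. *HSFC2A* rose by 2.54 and 3.04, and *HSFC1B* fell to under the array medians (-3.01 and -2.93). Of the 45 genes, 37 were not called in RH and 33 in TN1, and the list medians were 0.11 and 0.18.

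Some defence genes were among the leading named genes in untreated plants. *PBZ1*, a pathogenesis-related protein of class PR10, had 2782, 3040 and 4989 in R24C against 78.4, 160 and 131 in R6C, and 695, 793 and 618 in T24C against 84.1, 119 and 64.8 in T6C. The spread within R24C was wide, and the rise of 4.88 ± 0.44 in RH and 3.01 ± 0.44 in TN1 gave an interaction of 1.87 that was not called (adjusted p = 0.32). *OsWRKY76*, a transcription factor of defence, had 587, 808 and 804 in R24C against 70.2, 109 and 123 in R6C, and 559, 635 and 785 in T24C against 92.8, 76.1 and 87.2 in T6C. It rose by 2.89 ± 0.21 and 2.94 ± 0.21, and its relative *OsWRKY62* by 2.54 and 2.34. *CYP71Z7*, a cytochrome P450 of diterpenoid phytoalexin synthesis, rose by 2.64 and 2.59. *BBD1*, a nuclease of the basal defence response, was among the deepest fallers and had 82.2, 82.1 and 64.2 in R24C against 5084, 5033 and 6577 in R6C, and 61.7, 66.7 and 90.3 in T24C against 6102, 5894 and 5576 in T6C. It fell (-6.19 in RH and -6.35 in TN1, adjusted p = 8.4e-22 and 3.7e-22). Of 13 pathogenesis-related genes 1 rose and 1 fell in RH and 2 rose in TN1, while 11 were not called in each variety and the list medians were -0.01 and 0.06. Of 6 *WRKY* genes 2 rose in each variety, with list medians of -0.32 and 0.31.

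Genes of cell walls, the cell cycle and ribosomes stand for growth. *EXPB2*, a beta-expansin that loosens cell walls, had 1517, 1346 and 1281 in R24C against 388, 415 and 513 in R6C, and 1106, 1067 and 1251 in T24C against 258, 286 and 250 in T6C. It rose by 1.66 ± 0.15 in RH and 2.11 ± 0.15 in TN1, and *EXPB7* by 1.14 and 1.77, out of 70 wall genes with 2 risen in RH and 3 in TN1, shares near the 2.3% and 2.54% of all genes that rose. *CKS1*, a subunit of cyclin-dependent kinases, was the 1 cell cycle gene of 57 to be called, and it fell (-1.53 and -1.35). The 24 ribosomal protein genes and 5 histone genes had no call.

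Other leaders carried a name without belonging to a list above. *Hox22*, a homeodomain-leucine zipper factor, had 602, 722 and 673 in R24C against 56.4, 53.9 and 75.1 in R6C, and 706, 842 and 758 in T24C against 67.5, 54.8 and 65.3 in T6C, and rose by 3.44 ± 0.19 and 3.62 ± 0.19. *EGY3*, of a family of plastid membrane proteases, rose by 2.77 and 2.74. *LIR1*, a chloroplast protein known in rice as light-induced, had 1531, 1868 and 1620 in R24C against 11298, 11095 and 11694 in R6C, and 2797, 2923 and 2936 in T24C against 11869, 12901 and 12288 in T6C. It fell in both, and its T24C arrays all lay above its R24C arrays. *HIRL1* has 4 probe sets, of which the brightest pair fell (-4.34 and -2.34 in RH, -4.14 and -2.38 in TN1). The other 2, which are dimmer, gave -1.55 and -1.27 in RH and -1.69 and -0.93 in TN1, the last of these not called. A probe set whose gene is annotated both as *HSFA2D* and as *ARD2* rose by 3.65 and 3.69, while another probe set of the same gene gave 0.03 and -0.08.

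Probe sets of genes with only a locus number held changes as large. The gene with Entrez ID 4352254 had 13.9, 10.1 and 9.16 in R24C against 1905, 1991 and 2283 in R6C, and 11.5, 8.27 and 12.5 in T24C against 2109, 2131 and 1957 in T6C, the deepest fall in each variety among these genes (-7.56 ± 0.20 and -7.61 ± 0.20). Gene 4331855 fell as well (-5.99 and -6.45). Among risers of this kind, gene 4337447 had 4462, 4874 and 4720 in R24C against 118, 146 and 152 in R6C, and 4064, 4470 and 4776 in T24C against 148, 143 and 147 in T6C, a rise of 5.08 and 4.92. Gene 4326757 rose in RH and, by 6.03, in TN1, and stood higher in TN1 at either hour.

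The same probe sets were then read in plants that had been punctured or infested. Their intensities did not enter the fold changes that chose the probe sets, though they shared the normalization and the variances of the fit. Of the 495 shared risers, 409 (82.6%) rose in R24N/R6N, where 0.963% of all probe sets did, and 397 (80.2%) in T24N/T6N, where 0.97% did. In infested plants 432 (87.3%) rose in R24P/R6P, where 1.89% of all did, and 448 (90.5%) in T24P/T6P, where 3.79% did. Of the 580 shared fallers, 478 (82.4%) fell in R24N/R6N (1.6% of all) and 463 (79.8%) in T24N/T6N (1.54%). In infested plants 346 (59.7%) fell in R24P/R6P (1.3%) and 396 (68.3%) in T24P/T6P (5.72%). The opposite direction was called for 1 riser and 4 fallers in T24P/T6P and for none in the other 3 comparisons.

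The median of the shared risers was 1.44 in R24N/R6N, 1.43 in T24N/T6N, 1.63 in R24P/R6P and 1.94 in T24P/T6P. That of the shared fallers was -1.36, -1.33, -1.15 and -1.42 in the same order. These readings are of other plants and not of another experiment.

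**Figure D4:**
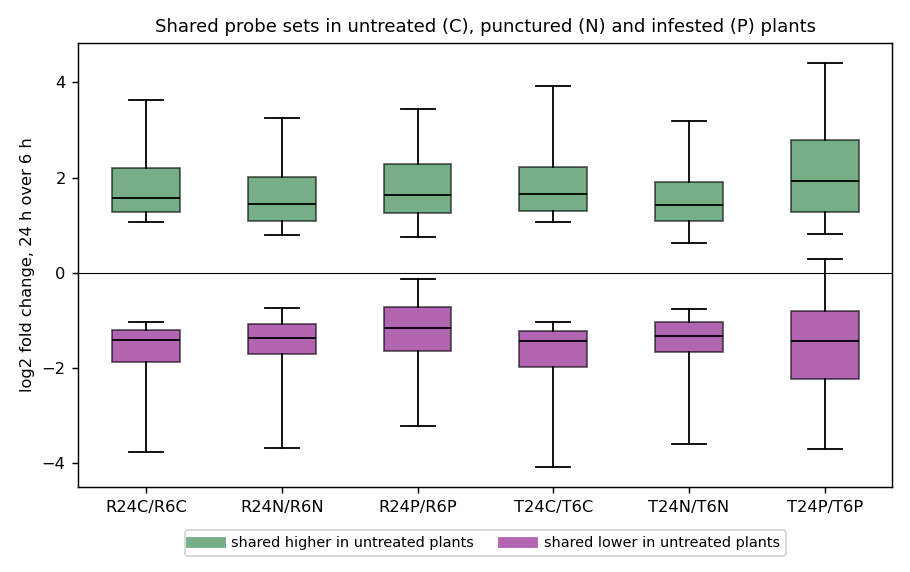
Log2 fold change of 24 h over 6 h for the shared risers (green) and shared fallers (purple), in untreated (C), punctured (N) and infested (P) plants of RH and TN1. Boxes span the quartiles with the median as a line, and whiskers reach the 5th and 95th percentiles. The risers stay above 0 and the fallers mostly below it in every series, with the widest boxes in T24P/T6P.

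Of the 5 called clock genes, 4 were called in the same direction in all 4 series, and *OsPRR95* in all but T24P/T6P (-0.97, under the minimum). *OsLHY* rose by 5.54 in R24N/R6N, 5.91 in T24N/T6N, 6.66 in R24P/R6P and 6.92 in T24P/T6P. *OsPCL1* fell (-5.90, -6.44, -6.53 and -6.94 in the same order), and so did *GI* (-2.36, -2.31, -1.74 and -1.35). Some fallers of untreated plants did not fall in infested ones. *OsSUS4* (0.56) and *EIL1b* (0.18) were not called in T24P/T6P and *SAUR39* rose (2.94), against -2.38, -2.32 and -1.26 in T24C/T6C. In R24P/R6P *OsSUS4* (-0.54) and *SAUR39* (-0.13) were not called either, against -1.78 and -1.59 in R24C/R6C, while *EIL1b* fell (-1.03). The T24P arrays were widely spread, with a mean of 1208 and a standard deviation of 780 for *OsSUS4*, and 446 and 361 for *SAUR39*.

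The time effect differed between the varieties for 187 probe sets (0.327%), by the interaction, which is R24C/R6C minus T24C/T6C on the log2 scale, with 96 positive and 91 negative. At the level of genes it was called for 95 (0.531%), and 4268 probe sets had an unadjusted p under 0.05. Of the 187, 14 were also shared calls, 41 were called in RH and not in TN1, 69 in TN1 and not in RH, and 63 in neither. The change was the larger in RH for 72 and in TN1 for 115. In 91 the signs were opposite, 14 of them with an adjusted p under 0.05 in each variety. The varieties themselves differed by at least 2-fold at 24 h for 68 of the 187 (2.75% of all probe sets did) and at 6 h for 88 (2.91%). The interaction is also the variety difference at 24 h minus that at 6 h, so choosing by it favours such differences. These shares are therefore no separate result. In 50 the intensity stayed under 100 on every untreated array.

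*MAN7*, a mannanase that cleaves wall mannans, had the largest interaction of a named gene and moved in opposite directions. It had 58.1, 46.2 and 45.9 in R24C against 104, 116 and 110 in R6C, and 797, 828 and 790 in T24C against 463, 421 and 407 in T6C. In RH the arrays of 24 h were the lower and in TN1 the higher, -1.14 ± 0.15 (adjusted p = 7.4e-07) and 0.91 ± 0.15 (adjusted p = 3.1e-05), an interaction of -2.05 ± 0.21 (adjusted p = 7.2e-07). It was alike in punctured plants, -1.18 in R24N/R6N and 0.90 in T24N/T6N. TN1 stood above RH at each hour.

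*HCT3*, a hydroxycinnamoyl transferase, gave an interaction on both of its probe sets. The brighter had 173, 180 and 176 in R24C against 158, 149 and 167 in R6C, and 768, 596 and 674 in T24C against 1276, 1211 and 1366 in T6C. It was steady in RH (0.16 ± 0.13) and lower at 24 h in TN1 (-0.92 ± 0.13, under the 2-fold minimum), an interaction of 1.08 ± 0.18 (adjusted p = 0.0018). The dimmer probe set gave 1.34. *CAD6*, a cinnamyl alcohol dehydrogenase of the same wider pathway, went the other way, with 177, 184 and 172 in R24C against 92.4, 95.3 and 134 in R6C, and 247, 306 and 322 in T24C against 85.7, 73.6 and 68.4 in T6C. It was at 0.75 ± 0.17 in RH and rose in TN1 (1.94 ± 0.17), an interaction of -1.19 ± 0.24 (adjusted p = 0.017).

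*CatA*, a catalase, fell in both and by more in TN1 on 1 probe set. That probe set had 1625, 1818 and 1770 in R24C against 5788, 5761 and 6815 in R6C, and 759, 906 and 1042 in T24C against 6919, 6760 and 5749 in T6C. The interaction was 1.04 ± 0.19 (adjusted p = 0.0047), while the other probe sets, several times brighter, gave 0.49 and 0.53 and were not called. In punctured plants the first probe set gave -1.68 in R24N/R6N and -1.86 in T24N/T6N, an interaction of 0.18, and in infested plants the interaction was 0.43, neither of them called. *BASS2*, a plastid pyruvate transporter, had 528, 500 and 608 in R24C against 155, 150 and 186 in R6C, and 62.2, 63.2 and 65.9 in T24C against 46.5, 35.7 and 30.3 in T6C on the probe set called. It rose by 1.74 ± 0.13 in RH and was at 0.79 ± 0.13 in TN1 (interaction 0.95 ± 0.18, adjusted p = 0.0083). The other 3 probe sets of *BASS2* were all brighter and gave interactions of 0.08, 0.01 and 0.09, with 0.84 to 1.22 in RH and 0.76 to 1.21 in TN1.

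*OsSPPL1*, a signal peptide peptidase-like protease, fell in RH alone. Its arrays gave 540, 609 and 565 in R24C against 1100, 1151 and 1197 in R6C, and 1007, 1000 and 971 in T24C against 1046, 1213 and 1094 in T6C. The log2 fold change was -1.01 ± 0.08 in RH, right at the minimum, and -0.17 ± 0.08 in TN1 (interaction -0.84 ± 0.12, adjusted p = 0.00017). *MHX1*, whose Arabidopsis counterpart exchanges magnesium and zinc for protons, rose in both and by more in TN1. It had 498, 518 and 443 in R24C against 225, 230 and 271 in R6C, and 996, 1044 and 1048 in T24C against 290, 298 and 283 in T6C. The rise was 1.01 ± 0.10 in RH and 1.83 ± 0.10 in TN1 (interaction -0.82 ± 0.15, adjusted p = 0.0038). Its other probe set gave -0.59, which was not called (adjusted p = 0.077), and in punctured plants the interaction was -0.32 (adjusted p = 0.81).

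**Figure D5:**
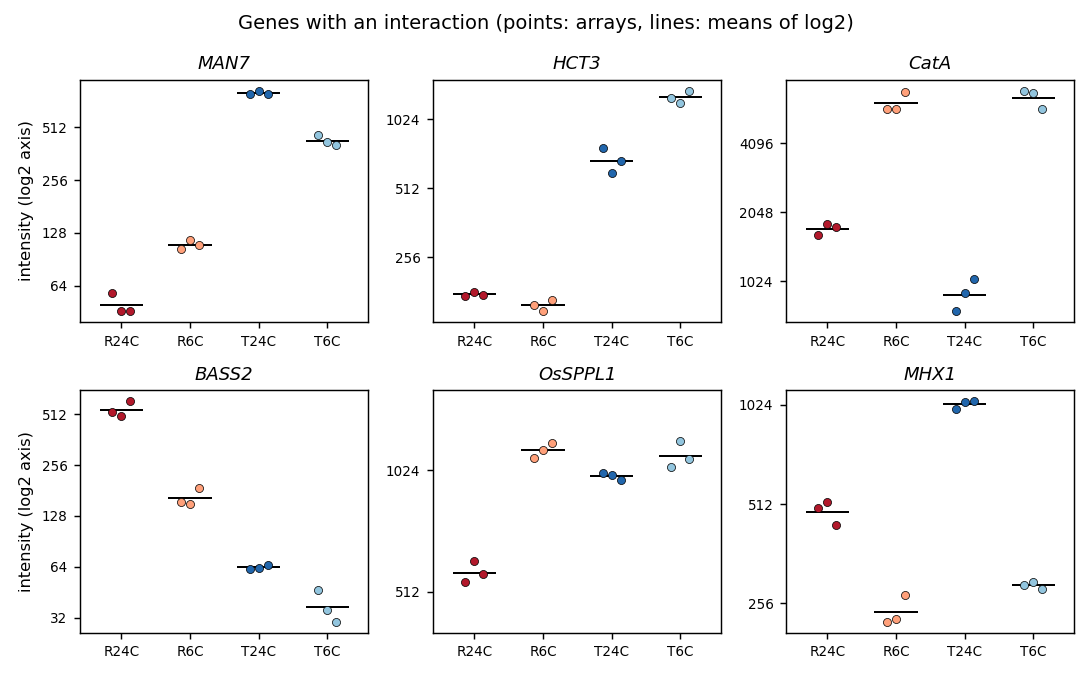
Intensity (log2 axis) of 6 genes with a called interaction on each untreated array, with R24C left of R6C and T24C left of T6C; points are arrays and lines the means of the log2 values. *MAN7* is low in R24C against R6C and high in T24C against T6C, *HCT3* differs over time in TN1, *OsSPPL1* in RH, and *CatA*, *BASS2* and *MHX1* move one way in both varieties by different amounts.

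*OsC3H54*, a CCCH zinc finger protein, rose in RH and not in TN1. It had 301, 371 and 274 in R24C against 122, 117 and 138 in R6C, and 138, 223 and 182 in T24C against 215, 189 and 205 in T6C. The log2 fold change was 1.32 ± 0.21 in RH and -0.19 ± 0.21 in TN1 (interaction 1.51 ± 0.30, adjusted p = 0.012), but in punctured plants it rose in both, by 1.53 in R24N/R6N and 1.70 in T24N/T6N. *Cht11*, a chitinase, had 126, 127 and 170 in R24C against 105, 118 and 157 in R6C, and 151, 582 and 188 in T24C against 57.9, 71.5 and 54.3 in T6C. One TN1 array of 24 h stood far above the others, and the interaction of -1.90 ± 0.41 (adjusted p = 0.027) was -1.31, and still called, without T24C replicate 2.

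Among the transport genes, *CAX1b*, a calcium proton exchanger, was at -0.30 in RH and fell in TN1 (-1.42). *HAK10*, a potassium transporter, was at -0.09 in RH and -0.70 in TN1, and *HMA5*, a copper-transporting ATPase, fell in RH (-1.07) and was at -0.22 in TN1. Their interactions were 1.12, 0.61 and -0.85, with adjusted p = 0.034, 0.032 and 0.037. The other probe set of *HAK10* gave an interaction of 0.52 that was not called (adjusted p = 0.14). *OsITPK3*, an inositol phosphate kinase, fell in RH (-1.59) and was at -0.73 in TN1 (interaction -0.86, adjusted p = 0.045). *LIR1*, described above, and *Hd1* had interactions of -0.67 and -0.84 with adjusted p = 0.043 and 0.035, with the lower log2 fold change in RH.

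A pair of stress regulators stood higher at 24 h in TN1. *NAC067*, a NAC transcription factor, had 193, 208 and 228 in R24C against 170, 185 and 252 in R6C, and 400, 542 and 700 in T24C against 217, 250 and 213 in T6C. It was at 0.07 ± 0.19 in RH and rose in TN1 (1.24 ± 0.19), an interaction of -1.17 ± 0.26 (adjusted p = 0.038). *JAZ10*, a repressor of jasmonate signalling, had 244, 281 and 287 in R24C against 291, 369 and 336 in R6C, and 343, 384 and 460 in T24C against 193, 285 and 227 in T6C. It was at -0.29 ± 0.16 in RH and 0.76 ± 0.16 in TN1 (interaction -1.05 ± 0.23, adjusted p = 0.028), and its other probe set gave an interaction of -0.57 that was not called (adjusted p = 0.19). Its relatives *JAZ9* and *JAZ12* were at 0.48 and -0.20 in RH and rose in TN1 by 1.45 and 1.08, with no interaction called. *JAZ9* lay under the array medians in all groups but T24C, and its TN1 call was lost with the offset of 16. The TN1 call of *JAZ12* was lost in 4 alternatives, among them the fits without T6C replicate 2 or T24C replicate 3. In punctured plants *NAC067* gave -0.04 and 0.02 and *JAZ10* -0.62 and -0.59 in RH and TN1.

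Among probe sets of genes with only a locus number, the leading 2 in each direction lay at or under the array medians in 1 variety. Gene 4343987 had 55.4, 59 and 56.9 in R24C against 1210, 1333 and 1449 in R6C, and 24.1, 18.8 and 27.8 in T24C against 28.6, 20.2 and 23.9 in T6C, an interaction of -4.49 ± 0.31. Gene 4325422 had 188, 277 and 373 in R24C against 19.5, 30.2 and 29.6 in R6C, and 8.96, 10.7 and 12.6 in T24C against 11.9, 11.2 and 9.56 in T6C, an interaction of 3.40 ± 0.46. Genes 4328677 and 4346671 gave -3.40 and 2.37, also with 1 variety under the array medians at both hours. Of the other probe sets of gene 4328677, 1 gave -2.67 and 1 was not called. Not all large interactions were of this kind, since a further gene with a locus number averaged 104 in R24C and 133 in R6C, and 919 in T24C and 129 in T6C, an interaction of -3.18 (adjusted p = 7e-06).

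Read in the other plants, the 187 interactions had the same sign in 180 when the varieties were compared under puncturing and in 166 under infestation. They passed the threshold there in the same direction in 49 and 97, while 98 (0.171%) and 8152 (14.3%) of all probe sets passed it in either direction. The opposite direction was called for 0 under puncturing and 3 under infestation. For the same-sign counts of 180 and 166 the share over all probe sets was not computed, so they have no background here. The median of the positive interactions was 1.04 in untreated, 0.61 in punctured and 0.52 in infested plants, and that of the negative ones -1.28, -0.61 and -0.73. Of the 18 interactions of named probe sets followed here, those of *MAN7*, *CatA*, *BASS2*, *OsSPPL1*, *MHX1* and the brighter probe set of *HCT3* were called in every fit that left out 1 of the 12 untreated arrays. Of these 12 fits, *OsC3H54* was called in 10 (not without T24C replicate 1 or R24C replicate 2), *CAD6* in 7, *Cht11* in 6, *JAZ10* in 4 and *HAK10* in 3. *CAX1b*, *NAC067*, *HMA5* and *Hd1* were called in 2, *LIR1* and the dimmer probe set of *HCT3* in 1 and *OsITPK3* in 0.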

How the data were processed

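RNA of seedling shoots was hybridised to the Affymetrix Rice Genome Array, 1 array a sample, with 3 biological replicates in each of 12 groups. The deposited values are intensities on a linear scale, 1 for each of 57194 probe sets and array, and the authors had summarised and normalized them over all 36 arrays with RMA and affy, per the labels, whose versions are not given in the sources used here. Such joint normalization removes overall shifts between arrays, so changes are relative to the bulk of probe sets. The conditions were read from the sample labels, which call the untreated plants widetype.

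The intensities were taken to log2 with no further normalization, offset or filter, and limma 3.58.1 in R 4.3.3 was fitted with 1 mean for each group over all 36 arrays (24 residual and 6.16 prior degrees of freedom). Contrasts were R24C/R6C, T24C/T6C, their difference as the interaction, and the same contrasts in punctured and infested plants. A call needed a Benjamini-Hochberg adjusted p, taken over all probe sets, below 0.05 and a 2-fold change, with no minimum size for the interaction. The fit was tested on simulated data with known changes. The replicates come from separate pots, and their number limits the precision.

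By the array annotation 22436 probe sets have 1 gene, 95 have several and 34663 have none, and 3195 of the first kind carry a gene name that is more than a locus number. Lists of genes by function used symbols and synonyms, 1 probe set a gene, the one with the highest mean over the 12 untreated arrays, and are described by counts and medians with no set test. Named genes were the leading shared risers and fallers and the leading interactions among probe sets with 1 named gene, every clock and photoperiod gene, and up to 4 called genes of each other list; the text gives part of them, picked for their function. Members, lists and rules were chosen with earlier results of these data known, so no count over a list is independent evidence. No p was computed over a list. Promoter and protein sequences were not used here.

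Alternatives were a fit of the 12 untreated arrays, the replicate number as a block, median centring, quantile normalization, an offset of 16, a filter that drops probe sets whose mean log2 is under 6, a trend with robust variances, array weights, an adjusted p under 0.01, no minimum fold change, the methods' one-way ANOVA before and after Benjamini-Hochberg adjustment, an interaction of at least 1, and leaving out each untreated array.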

Additional observations from a re-analysis of the deposited data

Results flagged for a closer look

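The time effect of 19 probe sets with a named gene differed between RH and TN1 by the interaction in limma. Of these, 18 were followed by name. The interaction is given here as the log2 fold change of 24 h over 6 h in RH minus that in TN1.

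It was positive for *OsC3H54* (1.51), for both probe sets of *HCT3* (1.34 and 1.08), for *CAX1b* (1.12), *CatA* (1.04), *BASS2* (0.95) and *HAK10* (0.61). Of these, *HCT3* and *CAX1b* were lower at 24 h in TN1 with smaller changes in RH, and *BASS2* and *CatA* rested on 1 probe set each that other probe sets of the gene did not match in size. *HAK10* also rested on 1 probe set, and its other probe set gave 0.52, not called (adjusted p = 0.14).

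It was negative for *MAN7* (-2.05), *Cht11* (-1.90), *CAD6* (-1.19), *NAC067* (-1.17), *JAZ10* (-1.05), *OsITPK3* (-0.86), *HMA5* (-0.85), *Hd1* (-0.84), *OsSPPL1* (-0.84), *MHX1* (-0.82) and *LIR1* (-0.67). It was also negative for *BGLU6* (-0.63, adjusted p = 0.045), at 0.59 in RH and 1.22 in TN1, which was not followed further. In this set *Cht11*, *CAD6*, *NAC067* and *MHX1* rose in TN1, with smaller values in RH, and *OsITPK3*, *HMA5*, *Hd1*, *OsSPPL1* and *LIR1* fell in RH, with values nearer 0 in TN1. *Hd1* was dim on all arrays. *MHX1* and *JAZ10* rested on 1 probe set each. Their other probe sets gave -0.59 and -0.57, not called (adjusted p = 0.077 and 0.19). Another probe set of *OsITPK3*, with a mean of 7.1 and under the array medians, gave 0.03. No group of 3 arrays was tested for an array far from the rest.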

How the results depend on the processing

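Among the named probe sets followed, with 268 time effects and 18 interactions, no call changed direction under any of the alternatives run. For the other called probe sets the directions were not compared between alternatives. Without a minimum fold change the calls numbered 12717 in R24C/R6C, 10974 in T24C/T6C and 7090 shared, and the shared ones called the same way numbered 5589 in R24N/R6N, 5461 in T24N/T6N, 4109 in R24P/R6P and 5008 in T24P/T6P, against 887, 860, 778 and 844 with the minimum. Under the other alternatives all of these stayed within 1.5 times the reported number, the lowest being 1158, 1171 and 848 with the offset of 16. Apart from the minimum fold change, the interaction moved most. Against 187 probe sets it gave 286 in the fit of the 12 untreated arrays alone (127 positive, 159 negative, with 140 of the 187 kept), 573 with array weights (267 positive, 306 negative, all 187 kept) and 116 with a minimum size of 1 (53 positive). The cause was not tested for the fit of 12 arrays or the array weights. Leaving out 1 array gave 1479 to 1644 calls in R24C/R6C, 1455 to 1680 in T24C/T6C, 1011 to 1143 shared, and 832 to 938, 810 to 900, 725 to 828 and 776 to 901 of the shared called again in R24N/R6N, T24N/T6N, R24P/R6P and T24P/T6P. It gave 115 to 176 interactions, 52 to 94 positive and 58 to 109 negative, with 115 without R24C replicate 2, 118 without T6C replicate 1 and 122 without R6C replicate 2. Of the 18 interactions followed by name, 12 lost their call in at least 2 of these fits.

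No positive correlation was seen between same-numbered arrays, whose deviations from their group means correlated between -0.19 and -0.02. Differently numbered arrays were not compared, so this check cannot settle whether the replicate numbers pair the samples. With the replicate number as a block the fit of all arrays called 1534, 1538, 1075 and 189 (RH, TN1, shared, interaction), and the fit of the 12 untreated arrays 1533, 1542, 1076 and 244, with 147 negative interactions.

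The share of risers among the calls was 40.8% in RH and 45.2% in TN1, between 34.3% (median centring) and 47.2% (offset of 16) in RH and between 40.3% and 49.6% in TN1. Genes near the 2-fold minimum lost calls in several alternatives, among them *SSII-1*, *OsSPPL1* and *MHX1* in RH. Near both thresholds, *CM-LOX1* of the jasmonate list in RH (-1.03, adjusted p = 0.045) lost its call in 10. *GRXC1* in TN1 (-1.04, adjusted p = 0.032) lost it in 11. *SAUR39* in TN1 (-1.26, adjusted p = 0.01) lost it in 5, among them the adjusted p under 0.01. Fold changes that start or end under the array medians are limited by background, which was not measured here.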
